A study of Mus musculus with 18 samples.

Results

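Cyp51, Lss, Acat2 and Srebf2 are 3 enzymes of cholesterol synthesis and the transcription factor that drives the pathway, and their mRNA was read by 6 of the 46120 probes of an Illumina Mouse-6 V1 bead array, 4 genes of 8127 that could be named. A probe was assigned to one of these genes when the zero-padded number in its identifier was the gene's mouse NCBI gene number: 13121 for Cyp51, 16987 for Lss, 110460 for Acat2 and 20788 for Srebf2. Cyp51 and Srebf2 had 2 probes each, of which the one with the higher mean signal is called the main probe (scl013121.10_1-S and scl020788.3_30-S) and the other the second probe (scl0013121.2_8-S and scl0020788.1_174-S). Lss and Acat2 had 1 probe each (scl0016987.2_34-S and scl0110460.1_24-S). All 6 probes were detected on all 18 arrays. In RefSeq's annotation of GRCm38.p6 the genes lie at chr5:4080674-4104697 (Cyp51), chr10:76531565-76557139 (Lss), chr17:12943042-12960725 (Acat2) and chr15:82147269-82205379 (Srebf2).

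The arrays held hippocampus and cortex of CD-1 mice labelled male and 16 days old, with 3 arrays in each of 6 groups. Chronic intermittent hypoxia (CIH), a low oxygen level that comes and goes, chronic consistent hypoxia (CCH), a low oxygen level held throughout, and the control condition were each sampled in both tissues, and the 2 weeks of exposure began on postnatal day 2. The sources used here give no oxygen level. The labels do not say whether hippocampus and cortex of one number came from the same mouse, or whether an array held 1 animal or several.

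Cholesterol is made from acetyl-CoA in a chain of reactions that runs through HMG-CoA, mevalonate, farnesyl diphosphate, squalene and lanosterol. The brain makes nearly all of its own cholesterol, because lipoproteins of the blood do not cross the blood-brain barrier, and synthesis is at its highest while myelin forms in the first weeks after birth. Acat2 encodes the cytosolic acetyl-CoA acetyltransferase that joins acetyl groups into acetoacetyl-CoA at the start of the chain (a different enzyme from the sterol esterifying protein that shares this name, encoded by Soat2). Lss encodes lanosterol synthase, which closes the sterol rings, and Cyp51 encodes the lanosterol demethylase that takes the next step towards cholesterol. Srebf2 encodes SREBP2, a membrane-bound transcription factor that is cleaved and moves to the nucleus when sterols are scarce. SREBP2 binds sterol regulatory elements, usually beside CCAAT boxes bound by NF-Y, in the promoters of cholesterol genes and of its own gene.

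Because these genes are classical SREBP2 targets, the 250 bases before the start site given by RefSeq's promoter table were read and are shown 5′ to 3′ on the gene's strand, with matches to ATCACCNCA (the form of the sterol element searched) and CCAAT in capitals.
Cyp51, chr5:4104698-4104947, minus strand: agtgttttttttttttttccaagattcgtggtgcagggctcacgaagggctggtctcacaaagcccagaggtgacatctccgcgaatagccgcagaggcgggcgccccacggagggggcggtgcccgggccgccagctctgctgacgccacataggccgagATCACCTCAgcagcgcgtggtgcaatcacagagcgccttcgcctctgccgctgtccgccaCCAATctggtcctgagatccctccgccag
Lss, chr10:76531355-76531604, plus strand: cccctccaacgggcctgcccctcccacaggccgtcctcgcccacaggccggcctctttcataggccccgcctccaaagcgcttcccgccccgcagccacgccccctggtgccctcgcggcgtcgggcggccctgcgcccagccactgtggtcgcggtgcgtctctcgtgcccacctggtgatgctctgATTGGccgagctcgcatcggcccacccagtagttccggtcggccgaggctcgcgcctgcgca
Acat2, chr17:12960726-12960975, minus strand: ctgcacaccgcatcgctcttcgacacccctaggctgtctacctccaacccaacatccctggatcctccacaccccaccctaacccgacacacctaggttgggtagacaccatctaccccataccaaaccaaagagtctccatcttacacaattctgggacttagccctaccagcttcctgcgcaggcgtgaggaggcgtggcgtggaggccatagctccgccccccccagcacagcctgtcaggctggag
Srebf2, chr15:82147019-82147268, plus strand: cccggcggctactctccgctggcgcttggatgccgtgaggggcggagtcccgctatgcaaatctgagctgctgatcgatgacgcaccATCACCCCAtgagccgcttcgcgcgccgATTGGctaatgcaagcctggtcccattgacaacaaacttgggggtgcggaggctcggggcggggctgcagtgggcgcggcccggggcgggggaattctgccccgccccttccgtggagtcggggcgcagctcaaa
Both strands were searched, so a CCAAT box on the opposite strand reads ATTGG. The sterol element stood in the Cyp51 window, 89 to 81 bases before the start, and in the Srebf2 window, 163 to 155 bases before it. It was present in 212 of 32851 such windows of RefSeq promoters (0.645%). Of the listed genes with a window, 1 of 16 cholesterol synthesis genes had it, Cyp51 itself, and none of 12 fatty acid synthesis genes. A listed gene was counted when any of its windows matched. Other forms of the element were not searched, so a window without a match may hold another form. CCAAT was found in the Cyp51, Lss and Srebf2 windows and in 33.8% of all windows. Of the listed genes 15 of 16 for cholesterol synthesis and 8 of 12 for fatty acid synthesis had it. GGGCGG, a GC box of the kind bound by Sp1, was found in the windows of all 4 genes and in 32.7% of all windows. In the same lists 15 of 16 and 7 of 12 genes had it. The table's start site is the first base of the annotated gene for Cyp51, Acat2 and Srebf2 and lies 40 bases inside it for Lss, whose window thus takes in the first 40 bases of the gene. These matches describe letters in the windows and no binding was measured.

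Between arrays of one group, log2 signals over all probes correlated at 0.982 to 0.995 (18 pairs), and each array detected between 12237 and 14513 probes. The 5 arrays with the highest Xist, all labelled male, were CIH hippocampus replicate 2, CCH hippocampus replicate 3, CIH cortex replicate 2 and CCH cortex replicates 2 and 3. Their log2 signal of Xist, the RNA of the inactive X chromosome, was 9.35 to 10.17, against 6.53 to 6.56 on the other 13, and that of the Y-linked Kdm5d was lower (6.46 to 6.50 against 6.70 to 6.92). Same-numbered arrays of the tissues did not always share this class: Xist was 10.04 on CCH cortex replicate 2 and 6.55 on CCH hippocampus replicate 2. No control array was of high Xist, while every exposed group held such arrays, so Xist class was not balanced between exposures and control. All differences were also fitted without the arrays of high Xist, and values from that fit are named as such. In that fit CCH cortex kept only replicate 1. The tissue labels fitted most markers: in controls Prox1 of the dentate gyrus was higher by 1.82 and Fibcd1 of field CA1 by 3.29 in hippocampus than in cortex, and the upper-layer gene Cux2 was lower by 0.99 (log2), while the deep-layer gene Bcl11b was higher in hippocampus by 0.48. Every group sat at one position on each of the 3 slides, so array position and group cannot be told apart. Nothing in the labels says that the 3 arrays of a group came from separate animals, and p-values then measure only the spread between these samples.

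In no comparison of one tissue did a probe of the 4 genes pass the test (limma, Benjamini-Hochberg adjusted over 14652 tested probes, threshold 0.05). The CCH differences from control of the 4 main probes, none of them called, ran from -0.42 (Lss) to 0.07 (Srebf2) in hippocampus and from -0.42 (Cyp51) to -0.05 (Acat2) in cortex. The median difference of the 4 genes (main probes) between CCH and control was -0.28 in hippocampus and -0.25 in cortex, against 0.00 for all tested probes in both. Between CIH and control the same median was -0.04 in hippocampus and -0.07 in cortex. None of the 6 probes was called in CCH hippocampus, where 0.519% of all tested probes were, and none in CCH cortex, where 0.846% were. At an unadjusted p under 0.05, Lss and Acat2 passed in hippocampus (8.40% of all probes did) and the main Cyp51 probe passed in cortex (10.8%). In each tissue 2 of the 6 probes had all 3 CCH arrays below all 3 control arrays, against 6.87% of all probes in hippocampus and 7.42% in cortex: Lss and Acat2 in hippocampus, Lss and the main Cyp51 probe in cortex. Hippocampus and cortex are mixtures of cells, in which fewer cells of a type and less RNA per cell cannot be told apart.

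**Figure D1:**
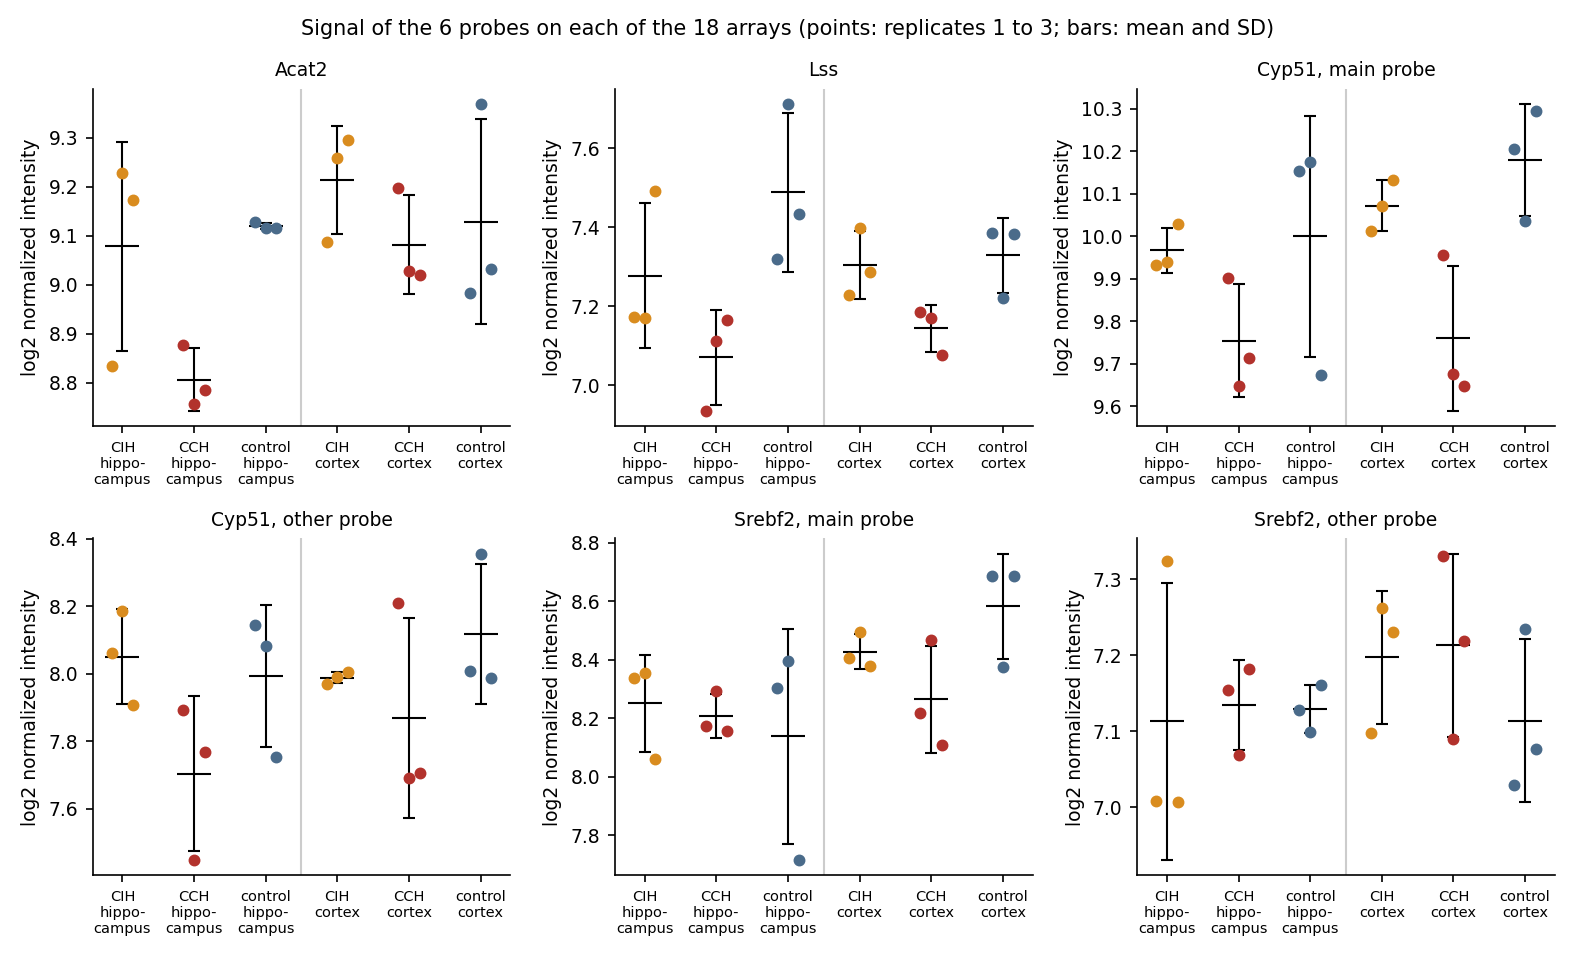
Log2 normalized intensity (vertical axis) of the 6 probes on each of the 18 arrays, by group (horizontal axis); points are replicates 1 to 3 from left to right, the wide bar is the mean and the error bars are 1 SD. All 3 CCH arrays of Acat2 in hippocampus and of Lss in both tissues lie below the 3 control arrays of that tissue, while for both Srebf2 probes the CCH and CIH arrays overlap with the control arrays of the same tissue.

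Acat2, at the entry of the pathway, differed from controls in hippocampus more than in cortex, though the difference between tissues was not resolved. Its log2 signals in hippocampus were 8.83, 9.23 and 9.17 in CIH, 8.88, 8.76 and 8.79 in CCH, and 9.13, 9.12 and 9.12 in control (replicates 1, 2 and 3). All CCH arrays lay below all control arrays, and the CIH arrays lay on both sides of the controls. The CCH difference from control was -0.31 ± 0.11 (SE, n = 3 arrays per group, limma adjusted p = 0.34). In cortex the signals were 9.09, 9.26 and 9.30 in CIH, 9.20, 9.03 and 9.02 in CCH, and 8.98, 9.37 and 9.03 in control. These groups overlapped, with a CCH difference of -0.05 and a 95% interval of -0.28 to 0.18; without the arrays of high Xist it was 0.07, from a single CCH cortex array. The CCH effect in hippocampus minus that in cortex was -0.27 (95% interval -0.59 to 0.06, limma adjusted p = 1). Between the CCH tissues themselves Acat2 was lower in hippocampus than in cortex by a log2 difference of -0.27 ± 0.11 (SE, limma adjusted p = 0.11), with no overlap of arrays.

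Lss, whose product makes lanosterol, had the largest CCH difference of the 4 genes in hippocampus. Its log2 signals there were 7.17, 7.17 and 7.49 in CIH, 6.94, 7.11 and 7.16 in CCH, and 7.32, 7.71 and 7.43 in control. The CCH arrays were below every CIH and every control array of that tissue. CCH minus control was -0.42 ± 0.10 (SE, n = 3 per group, limma adjusted p = 0.13), and within the 3 slides it was -0.38, -0.60 and -0.27. CIH minus control was -0.21 (95% interval -0.43 to 0.01), with overlapping arrays. In cortex the signals were 7.23, 7.40 and 7.29 in CIH, 7.19, 7.17 and 7.08 in CCH, and 7.38, 7.22 and 7.38 in control. Again every CCH array lay below the others, by a smaller CCH difference from control of -0.18 ± 0.10 (SE, limma adjusted p = 0.57). Without the 5 arrays of high Xist the CCH difference of Lss was -0.46 in hippocampus and -0.14 in cortex.

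Cyp51, which acts on lanosterol, was lowest in CCH by both of its probes. The main probe read 10.01, 10.07 and 10.13 in CIH cortex, 9.96, 9.68 and 9.65 in CCH cortex, and 10.21, 10.04 and 10.29 in control cortex (log2). All CCH cortex arrays lay below all CIH and control cortex arrays. CCH minus control was -0.42 ± 0.12 (SE, n = 3 per group, limma adjusted p = 0.17), and -0.25, -0.36 and -0.65 within the 3 slides. CCH cortex replicates 2 and 3 are arrays of high Xist, and without all such arrays this difference was -0.22 (limma adjusted p = 0.58), from the single CCH cortex array left. In hippocampus the main probe read 9.93, 9.94 and 10.03 in CIH, 9.90, 9.65 and 9.71 in CCH, and 10.15, 10.17 and 9.67 in control. One control array, replicate 3, lay among the CCH arrays, and CCH minus control was -0.25 (95% interval -0.51 to 0.02). Leaving out that control array made it -0.41 (limma adjusted p = 0.13).

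The second Cyp51 probe read 8.06, 8.19 and 7.91 in CIH hippocampus, 7.89, 7.45 and 7.77 in CCH hippocampus, and 8.15, 8.08 and 7.75 in control hippocampus. In cortex it read 7.97, 7.99 and 8.0 in CIH, 8.21, 7.69 and 7.71 in CCH, and 8.01, 8.36 and 7.99 in control. CCH cortex replicate 1 stood above the other CCH arrays and above 2 of the 3 controls. The CCH differences from control of this probe were -0.29 in hippocampus and -0.25 in cortex (limma adjusted p = 0.71 and 0.62); without the arrays of high Xist the cortex value was 0.09, from CCH cortex replicate 1 alone. The 2 Cyp51 probes lay on the same side of their tissue mean on 13 of 18 arrays and had the same sign in 3 of 4 differences from control.

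Srebf2 was read by 2 probes, neither called. Its main probe read 8.34, 8.36 and 8.06 in CIH hippocampus, 8.17, 8.29 and 8.16 in CCH hippocampus, and 8.30, 8.39 and 7.71 in control hippocampus (log2). Control replicate 3 was the lowest of the 18 arrays. In cortex the probe read 8.41, 8.50 and 8.38 in CIH, 8.22, 8.47 and 8.11 in CCH, and 8.69, 8.37 and 8.69 in control. CCH minus control was 0.07 in hippocampus (95% interval -0.26 to 0.40) and -0.32 ± 0.15 (SE) in cortex (limma adjusted p = 0.47), with overlapping arrays in both tissues. The sign in hippocampus rested on control replicate 3: without it the difference was -0.14, without control replicate 2 it was 0.20, and with median scaling it was -0.09. The second probe read between 7.01 and 7.33 on all 18 arrays, with a CCH difference of 0.01 in hippocampus (95% interval -0.18 to 0.19) and 0.10 in cortex (95% interval -0.09 to 0.28). The 2 Srebf2 probes lay on the same side of their tissue mean on 5 of 18 arrays and had the same sign in 1 of 4 differences from control, so they gave no common direction. SREBP2 is regulated by cleavage of the protein, which an mRNA signal does not read.

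In intermittent hypoxia none of the 6 probes was called in CIH hippocampus (0.0614% of all tested probes were) or CIH cortex (0.150%). At an unadjusted p under 0.05 none passed either, against 6.39% of all probes in hippocampus and 6.37% in cortex. Every probe of the 4 genes overlapped with control in both tissues, whereas 9.48% of all probes in hippocampus and 12.5% in cortex did not. The largest CIH difference in size was that of Lss in hippocampus, given above; for the main Cyp51 probe the difference was -0.03 in hippocampus (95% interval -0.29 to 0.23) and -0.11 in cortex (95% interval -0.37 to 0.15). Set directly against CCH, CIH had higher signals for all 4 main probes in both tissues, with a median log2 difference of 0.21 in hippocampus and 0.16 in cortex, and no probe was called (0.287% and 0.471% of all tested probes were). At an unadjusted p under 0.05, Acat2 and the second Cyp51 probe passed in hippocampus (6.61% of all probes did) and the main Cyp51 probe in cortex (9.81%). The Lss probe and both Cyp51 probes (3 of 6) had all CIH hippocampus arrays above all CCH hippocampus arrays (6.42% of all probes did), and in cortex 2 did, the Lss and main Cyp51 probes (7.95%). The CIH minus CCH difference was 0.27 ± 0.11 for Acat2 in hippocampus and 0.31 ± 0.12 for the main Cyp51 probe in cortex (SE, n = 3 per group, limma adjusted p = 0.62 and 0.41). Without the arrays of high Xist the difference of the main Cyp51 probe in cortex was 0.12. The second Cyp51 probe had -0.22 there, against 0.12 with all arrays, and Acat2 had -0.01. These cortex values rest on a single CCH array. In the same fit CIH minus CCH was -0.03 for the main Srebf2 probe in hippocampus.

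**Figure D2:**
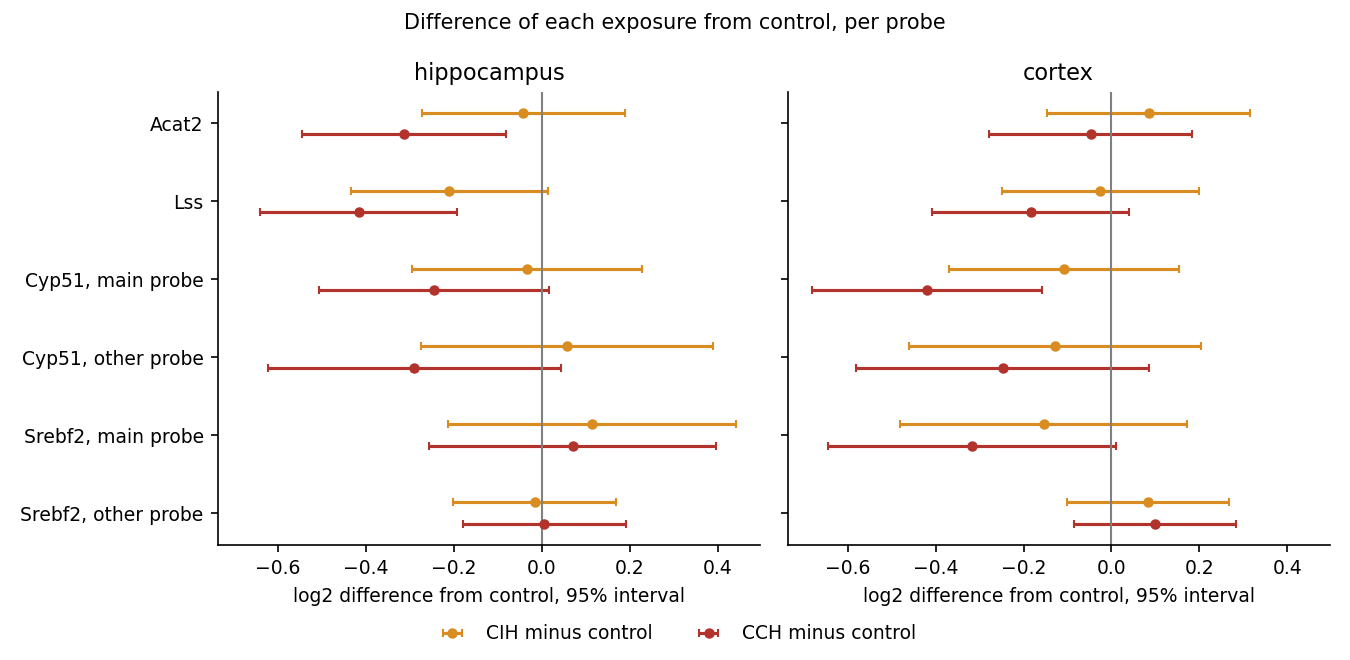
Log2 difference of CIH (upper of each pair) and CCH (lower) from control for the 6 probes, in hippocampus (left) and cortex (right); points are the fitted differences and bars are 95% intervals over 18 arrays. The CCH intervals of Acat2 and Lss in hippocampus and of the main Cyp51 probe in cortex lie below 0, with none past the adjusted threshold.

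Averaged over the tissues, a comparison added after the first results were seen, the CCH difference from control was -0.30 ± 0.07 for Lss and -0.33 ± 0.09 for the main Cyp51 probe (SE, 6 arrays per condition, limma adjusted p = 0.051 and 0.068, where 2.21% of all tested probes were called). That fit took the arrays as independent, and the labels do not say that the 6 arrays of a condition came from 6 animals. With the slide, which carries the replicate number, as a block the adjusted p of Lss was 0.049 by limma. Leaving out control hippocampus replicate 3 brought the main Cyp51 probe to -0.41 (limma adjusted p = 0.0044), and leaving out control hippocampus replicate 1 brought Lss to -0.34 (adjusted p = 0.025) in the same fit. Without CCH cortex replicate 1 the main Cyp51 probe had -0.38 (limma adjusted p = 0.034). In the other direction, without control hippocampus replicate 2 the main Cyp51 probe had -0.29 and Lss -0.24. Of 12 fits that each left out a single array, 9 called no member. Over the 12 the limma adjusted p reached 0.16 for the main Cyp51 probe and 0.13 for Lss. Without the arrays of high Xist no member was called. Acat2 averaged -0.18 and the main Srebf2 probe -0.12 (limma adjusted p = 0.32 and 0.74), and the second Cyp51 probe -0.27 (adjusted p = 0.30). The CIH averages ran from -0.12 for Lss to 0.03 for the second Srebf2 probe, and none was called (0.894% of all tested probes were).

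None of the 6 probes was called between hippocampus and cortex in controls, where 11.7% of all tested probes were, in CCH (14.3%) or in CIH (10.7%). At an unadjusted p under 0.05 the main Srebf2 probe passed in controls (22.7% of all probes did), Acat2 in CCH (27.1%) and none in CIH (22.2%). The largest tissue difference was that of the main Srebf2 probe in controls, lower in hippocampus by -0.44 ± 0.15 (SE, n = 3 per group, limma adjusted p = 0.080). Without control hippocampus replicate 3 it was -0.23, and without replicate 2 it was -0.57 (limma adjusted p = 0.32 and 0.038). With median scaling it was -0.53 (limma adjusted p = 0.042), and Acat2 in CCH was also called, at -0.41. Ordered by mean signal over the 6 groups, Lss and both Cyp51 probes had both CCH groups in the last places, and Acat2 had CCH hippocampus last. In all 6 orders the arrays of neighbouring groups overlapped. No probe on the array had a CCH or CIH effect that differed between tissues at the adjusted threshold, and 4.58% (CCH) and 2.61% (CIH) of 14652 probes did at an unadjusted p under 0.05, none of them a member. Without the arrays of high Xist CCH cortex kept only replicate 1, and no count of calls for the CCH effect is given for that fit.

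Of 21 listed genes of cholesterol synthesis 11 had a probe and 9 were detected, the 3 enzymes above among them. In CCH 8 of the 9 were below control in each tissue, against 51.9% of all probes in hippocampus and 50.5% in cortex, with medians of -0.25 in hippocampus and -0.18 in cortex. None was called. In each tissue 5 of the 9 had all CCH arrays below all control arrays, among them Acat2, Lss, Fdps and Hmgcs1 in hippocampus, and Lss, Cyp51, Hmgcs1 and Nsdhl in cortex (6.87% of all probes did in hippocampus and 7.42% in cortex). Hmgcs1, which makes HMG-CoA, had CCH differences of -0.08 in hippocampus and -0.20 ± 0.06 (SE) in cortex (limma adjusted p = 0.84 and 0.16). Nsdhl, a sterol dehydrogenase that acts after Cyp51, had -0.15 and -0.25, and Fdps, farnesyl diphosphate synthase, -0.28 and -0.18. Tm7sf2, a sterol reductase, had 0.14 in CCH hippocampus and 0.04 in CCH cortex. In CIH 7 of the 9 genes were below control in each tissue, against 50.5% of all probes in hippocampus and 46.6% in cortex, with medians of -0.04 in hippocampus and -0.02 in cortex.

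Genes that sense sterols or move them gave no call in an exposure. Of 16 listed genes of sterol regulation and uptake 6 were detected, Srebf2 included, and none was called in CIH or CCH. Stard4, a sterol carrier and SREBP2 target, had CCH differences of -0.15 in hippocampus and -0.24 in cortex (limma adjusted p = 0.93 and 0.62). Vldlr, a lipoprotein receptor, lay above control by 0.08 in hippocampus and 0.06 in cortex in CCH, and by 0.12 and 0.10 in CIH, and was the list's one gene called between tissues, lower in hippocampus in control, CCH and CIH by -0.33, -0.31 and -0.32 (limma adjusted p = 0.032, 0.039 and 0.041). Of 15 listed genes of export and turnover 4 were detected (Abcg1, Apoe, Apoa1 and Soat1), with CCH differences between -0.18 and 0.13 and none called in an exposure. Abcg1, a sterol exporter, had -0.19 in CIH hippocampus and -0.10 in CIH cortex, and Apoe, the main apolipoprotein of brain, 0.15 and 0.13. Apoa1 had 0.13 in CCH hippocampus and 0.08 in CCH cortex. Soat1, which esterifies cholesterol, was called higher in hippocampus than in cortex in control, CCH and CIH (0.34, 0.40 and 0.34; limma adjusted p = 0.035, 0.012 and 0.039). Tm7sf2 and the desaturase Fads2 were called between tissues in controls, at -0.26 and 0.44 (adjusted p = 0.019 and 0.039). The tissue calls of these 4 genes were each lost when 1 or more single arrays were left out. Without the arrays of high Xist the calls of Vldlr in CCH and CIH were lost (limma adjusted p = 0.090 and 0.29), as were those of Tm7sf2 in controls (0.058) and of Soat1 in control, CCH and CIH (0.097, 0.21 and 0.18).

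**Figure D3:**
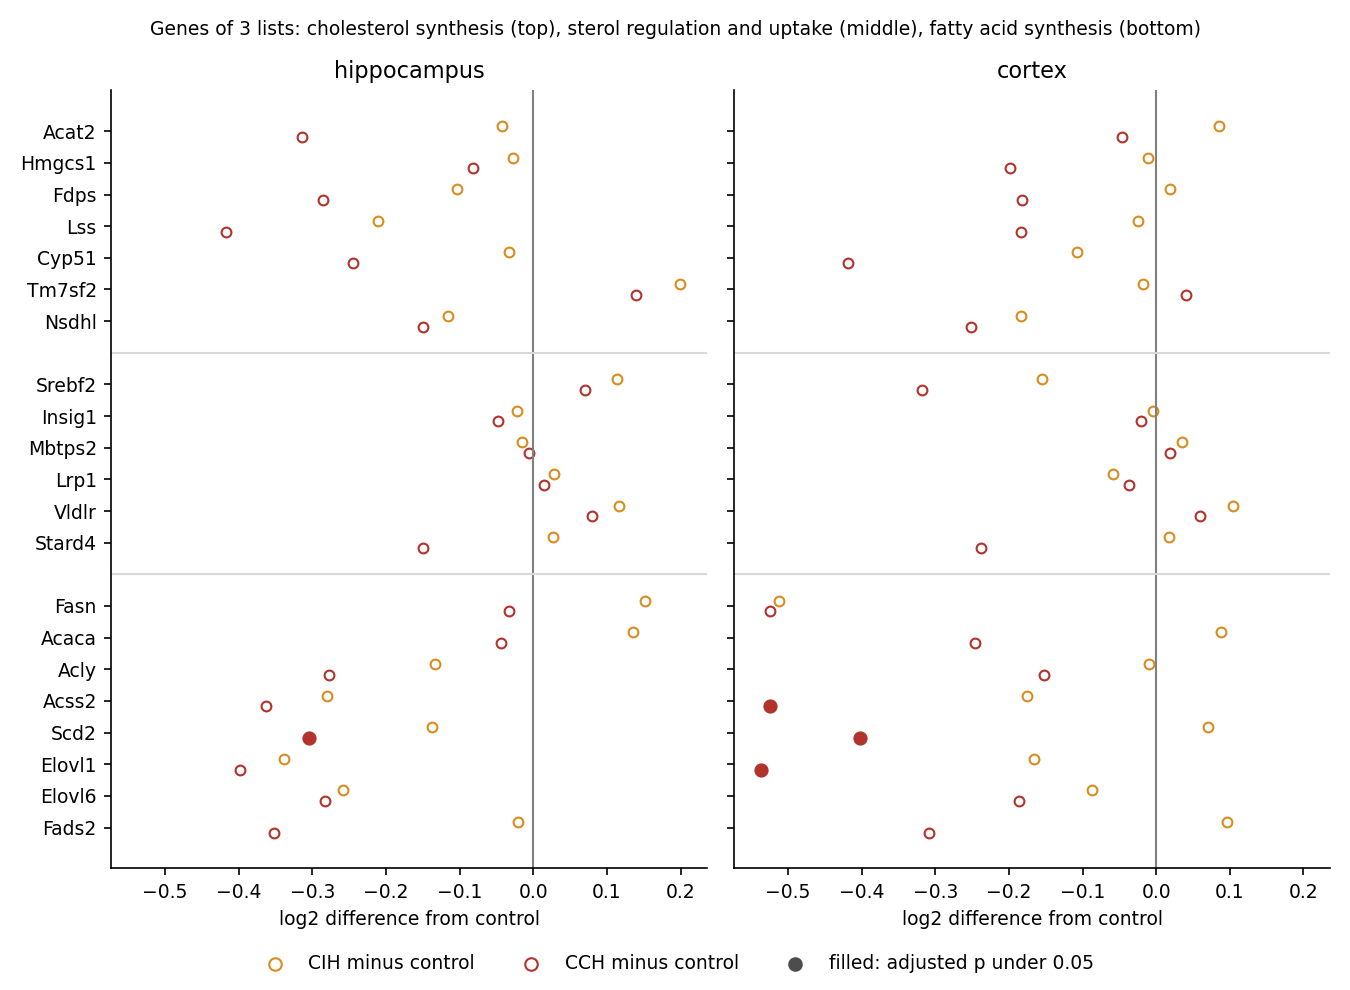
Log2 difference from control (horizontal axis) of 7 detected genes of cholesterol synthesis and of each detected gene of sterol regulation and uptake, and fatty acid synthesis, in hippocampus (left) and cortex (right); the upper point of a gene is CIH, the lower CCH, and filled points have an adjusted p under 0.05. The filled points are Scd2 in both tissues and Acss2 and Elovl1 in cortex, all in CCH.

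The neighbouring pathway of fatty acid synthesis, driven mainly by SREBP1, held the calls. Of 15 listed genes 8 were detected, and all 8 were below control in CCH in each tissue, with medians of -0.29 in hippocampus and -0.36 in cortex. In cortex 3 of the 8 were called lower (0.389% of all tested probes were) and in hippocampus 1 was (0.212%). Scd2, the stearoyl-CoA desaturase of brain, read 13.68, 13.63 and 13.72 in CIH hippocampus, 13.48, 13.50 and 13.54 in CCH hippocampus, and 13.69, 13.80 and 13.94 in control hippocampus. In cortex it read 13.90, 13.80 and 13.94 in CIH, 13.36, 13.45 and 13.43 in CCH, and 13.77, 13.83 and 13.83 in control. The CCH arrays lay below all others of their tissue. Scd2 fell in CCH cortex to 0.757 times control, a log2 difference of -0.40 ± 0.06, and in CCH hippocampus to 0.810 times control, -0.30 ± 0.06 (SE, n = 3 per group, limma adjusted p = 0.0025 and 0.021). It was higher in CIH than in CCH cortex by 0.47 (limma adjusted p = 0.00086).

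Acss2, which makes acetyl-CoA from acetate and so feeds both pathways, read 9.02, 9.22 and 9.21 in CIH cortex, 8.64, 8.88 and 8.88 in CCH cortex, and 9.17, 9.42 and 9.39 in control cortex. It fell in CCH cortex by 0.52 on the log2 scale (SE 0.09, limma adjusted p = 0.014), with all CCH arrays below all controls and slide values of -0.52, -0.54 and -0.51. In hippocampus it read 9.09, 9.42 and 9.29 in CIH, 9.15, 9.20 and 9.19 in CCH, and 9.60, 9.55 and 9.49 in control, and its CCH difference of -0.36 was not called (limma adjusted p = 0.13). Elovl1, a fatty acid elongase, read 7.55, 7.80 and 7.59 in CIH cortex, 7.18, 7.44 and 7.20 in CCH cortex, and 7.75, 7.87 and 7.81 in control cortex. It fell in CCH cortex by 0.54 (log2, SE 0.10, limma adjusted p = 0.022), and had -0.40 in hippocampus (adjusted p = 0.14). Fasn, fatty acid synthase, read 11.53, 10.70 and 11.71 in CIH cortex, 11.25, 11.02 and 11.64 in CCH cortex, and 11.91, 11.60 and 11.97 in control cortex. Its differences from control were -0.51 in CIH and -0.52 ± 0.24 (SE) in CCH, neither called. CIH cortex replicate 2, an array of high Xist, stood apart, and without it the CIH difference was -0.20. In CIH none of the 8 genes was called; the largest differences in hippocampus were those of Elovl1 and Acss2 (-0.34 and -0.28).

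The calls of Acss2 and Elovl1 in cortex and of Scd2 in hippocampus were lost when single arrays were left out, at adjusted p of up to 0.073, 0.094 and 0.11 by limma, whereas Scd2 in cortex kept an adjusted p of 0.0082 to 0.019. Fitted on only the 6 arrays of the groups compared, none of the 4 was called (limma adjusted p = 0.16, 0.10, 0.35 and 0.050). The call of Scd2 in CIH minus CCH cortex was lost in such a fit too (limma adjusted p = 0.06). It was kept when single arrays were left out (limma adjusted p of 0.0016 to 0.0072). The call of Scd2 in hippocampus was also lost with no background correction, with median scaling, with cyclic loess and without the arrays of high Xist (limma adjusted p = 0.066, 0.064, 0.059 and 0.10), and that of Elovl1 in cortex with the deposited series values and with no filter on dim probes (0.10 and 0.069). Between tissues Acss2 was called higher in CCH hippocampus than in CCH cortex, by 0.38, and Scd2 and Elovl1 were called lower in CIH hippocampus than in CIH cortex, by -0.21 and -0.36 (limma adjusted p = 0.011, 0.026 and 0.035). These calls too were lost when single arrays were left out, at adjusted p of up to 0.052, 0.11 and 0.16 by limma, and those of Scd2 and Elovl1 without the arrays of high Xist (0.11 each).

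**Figure D4:**
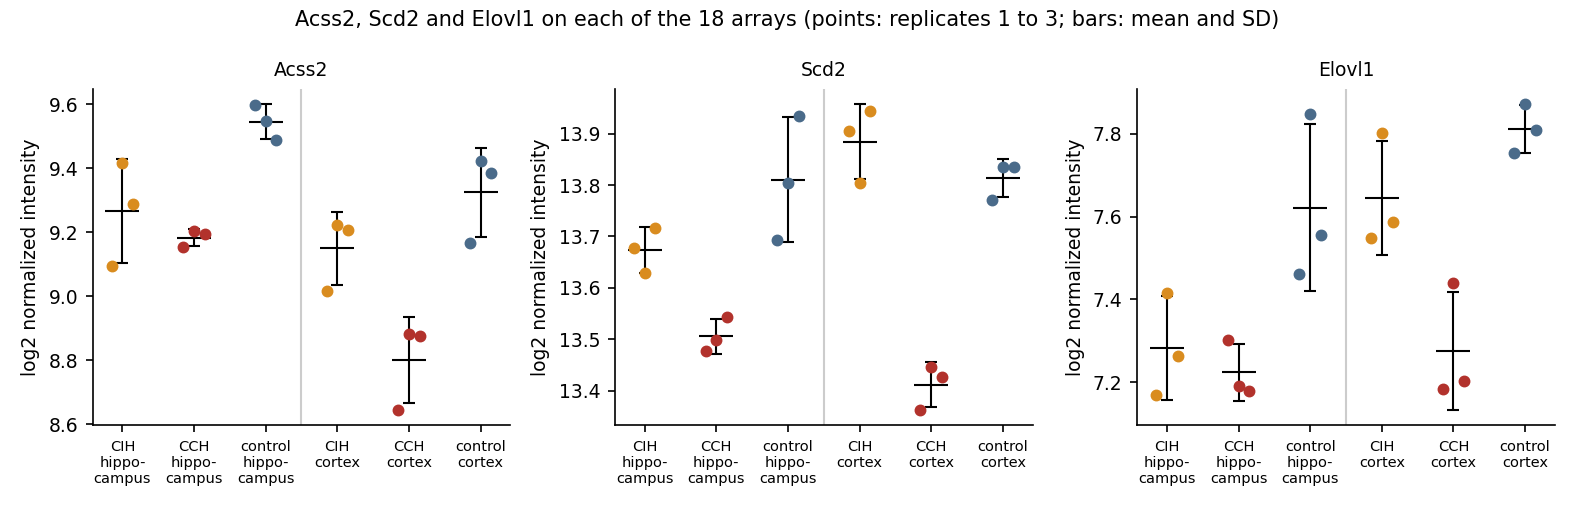
Log2 normalized intensity (vertical axis) of Acss2, Scd2 and Elovl1 on each of the 18 arrays, by group (horizontal axis); points are replicates 1 to 3 from left to right, the wide bar is the mean and the error bars are 1 SD. All 3 CCH arrays of each gene lie below all 3 control arrays of the same tissue.

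Markers of other cells moved in the same arrays. All 10 detected genes of the myelin and oligodendrocyte list (20 listed) were below control in CCH in each tissue, and 6 were called in hippocampus (0.212% of all tested probes were called lower) and 3 in cortex (0.389%), among them Fa2h, a hydroxylase of myelin lipids (-1.21 in hippocampus), and Opalin, an oligodendrocyte membrane protein (-0.72 in hippocampus and -0.70 in cortex). The list's mean log2 signal was 8.82 to 9.22 in CIH, 8.49 to 8.91 in CCH and 9.25 to 9.62 in control hippocampus, and 9.19 to 9.50 in CIH, 9.22 to 9.39 in CCH and 9.67 to 9.78 in control cortex. In CIH the myelin list had medians of -0.43 in hippocampus and -0.33 in cortex. None of its genes was called there (0.0341% and 0.0819% of all tested probes were called lower). The members' medians in CIH were -0.04 in hippocampus and -0.07 in cortex, with Lss at -0.21 in hippocampus. All 4 detected endothelial genes were above control in CCH (medians of 0.34 in hippocampus and 0.37 in cortex), as were all 3 globin genes (medians of 1.26 in both), and 3 astrocyte genes had medians of -0.17 in hippocampus and -0.09 in cortex. The intensity of the array's 18S rRNA probe, before normalization, was 7991 to 11502 in CIH, 7042 to 8627 in CCH and 4756 to 9525 in control hippocampus, the lowest being control replicate 3, and 9416 to 12009 in CIH, 5132 to 8552 in CCH and 10916 to 12879 in control cortex. Each of these markers was detected on at least 3 arrays. The part of these markers and of the 18S signal in the values of the cholesterol genes was not tested.

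Over the 18 arrays, after each tissue's mean was subtracted, the genes whose signal was most like a member's were found among 3880 named genes. They are given as a description, since the arrays share slides, position and conditions. For Lss they were Nkx2-2, a factor of the oligodendrocyte lineage, Acly, which makes cytosolic acetyl-CoA, and Hnrnpc (Pearson 0.904, 0.874 and 0.816). For Cyp51 they were Qdpr, Dgkh and Tmem229a (0.828, 0.765 and 0.755), and for Acat2 Fdps, Lrig1 and Cdc37l1 (0.792, 0.770 and 0.760). For Srebf2 they were Fubp3, Brsk2 and E2f3 (0.798, 0.732 and 0.729). Acly and Fdps stand in the lists above. The members were left out of the search, and no other cholesterol synthesis gene was among the 3 nearest to Cyp51, Lss or Srebf2.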

How the data were processed

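Per the labels, RNA of 18 tissue samples was hybridised to Illumina Mouse-6 V1 bead arrays, 6 arrays on each of 3 slides. The deposited values used are the authors' BeadStudio export: the mean intensity of each probe, not normalized, and a detection score, deposited as a fraction from 0 to 1, with the bead count per probe (BeadStudio 2.0 per the submitters' processing notes, 1.5.1.3 per the file headers). The authors' series values equalled the export minus 192 to 254 on 17 arrays, with nothing subtracted on control cortex replicate 2 and low values left empty. Another 90 columns were not used.

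Intensities were background-corrected with normexp (limma 3.58.1, nec on detection scores), given an offset of 16, quantile-normalized and turned to log2. Probes with a score over 0.99 on at least 3 arrays were kept (14652 of 46120). A model with 1 mean for each group was fitted to the 18 arrays together (lmFit, then eBayes), with Benjamini-Hochberg adjustment over all kept probes and a threshold of 0.05. Data were simulated for CCH minus control in cortex, with noise drawn independently for each array and so without a shared slide deviation. On these the test recovered 46% of 50 randomly drawn probes changed by log2 0.3, 76% at 0.5 and 92% at 1, with 11 false calls. The number of arrays limits the precision.

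Genes were named by reading padded probe numbers as NCBI gene numbers (82.6% of 11897 matched RefSeq's table of GRCm38.p6, against 46.0% with 1 added), so 4402 kept probes had a name. A gene's main probe is its kept probe with the highest mean signal. Named are all member probes, every called gene of the 4 lipid lists, the 2 of each list with the largest difference per exposure, and the 3 nearest in pattern to each member; Hmgcs1, Fdps and the markers were chosen after their values were seen. Single values of 2 detected genes of the cholesterol synthesis list are not reported here. The members and lists were chosen with earlier results of these data known. Same-numbered arrays of different groups share a slide and deviated together (median correlation 0.23 over 45 pairs, against -0.10 over 90 others; 31 of 45 were over 0.1), and a fit with this number as a block was run. The design text gives the CIH mice the CCH name once, and titles and descriptions were followed.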

Additional observations from a re-analysis of the deposited data

Results flagged for a closer look

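The CCH effect of the main Srebf2 probe, hippocampus minus cortex, was 0.39 (log2, limma adjusted p = 1). It stands out because all 3 CCH hippocampus arrays lay above the control hippocampus mean and all 3 CCH cortex arrays below the control cortex mean, and the test of the difference did not pass. The direction in hippocampus rested on control hippocampus replicate 3, the lowest of the 18 arrays: without it CCH minus control was -0.14 there, against 0.07 with it, and the effect of hippocampus minus cortex was 0.18. The second Srebf2 probe gave -0.09.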

How the results depend on the processing

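No member probe was called in any comparison of one tissue or between exposures under any alternative run. Of 1062 values of the members in the planned comparisons, 65 changed sign without a call and 3 were called: the main Srebf2 probe in hippocampus minus cortex of controls (-0.53 with median scaling, -0.57 without control hippocampus replicate 2) and Acat2 in hippocampus minus cortex of CCH (-0.41 with median scaling). The members called were thus 1 and 1 with median scaling, and 0 to 1 in controls when single arrays were left out. In the mean over tissues of CCH the members called were 1 without background correction, 3 with median scaling (Cyp51, Lss and Acat2), 1 with the replicate block (Lss, adjusted p = 0.049) and 0 to 1 without single arrays. The replicate block changed no other call of a member and moved no count of calls over all probes by more than 1.5 times. The members' median became -0.43 in CCH hippocampus and -0.20 in hippocampus minus cortex of CCH with median scaling, and -0.43 in CCH cortex and 0.28 in CIH minus CCH cortex with the deposited series values, in which Lss was filled on only 9 of 18 arrays and had -1.50 in CCH hippocampus. Without the arrays of high Xist it was -0.17 in hippocampus minus cortex of CCH and -0.16 for the CCH effect of hippocampus minus cortex. Without single arrays that effect ran from -0.13 to 0.0695, and the median in CIH hippocampus from -0.15 (without control replicate 3) to 0.027. With single arrays left out set aside, calls over all probes were as low as 38 in CCH cortex (main 124) and 33 in CIH minus CCH cortex (69). They ranged from 14 to 145 in CCH hippocampus (76), 3 to 45 in CIH cortex (22) and 0 to 27 in CIH hippocampus (9). CIH minus CCH hippocampus had 17 to 46 (42), and the CIH effect of hippocampus minus cortex 0 to 1 (0). For the CCH effect of hippocampus minus cortex the main count was 0. The highest counts in CCH cortex, in CIH minus CCH cortex and for that CCH effect came without the arrays of high Xist. That fit leaves 1 array of CCH cortex, and its counts for these comparisons are not given. The counts of 38, 14 and 33, and the 0 in CIH hippocampus, came from fits on only the groups compared, which use fewer arrays. The cause of the others was not tested. Each group had 3 arrays, and changes near log2 0.3 were recovered for 46% of probes simulated for CCH minus control in cortex. Those probes were drawn at random from all tested probes, so 46% is not a rate for the members. The SE of the members in that comparison ran from 0.09 to 0.16. Differences of the members' size could be missed there, and the other comparisons were not simulated.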

Other observations

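Genes of ketone body and mitochondrial thiolase reactions, which also turn over acetoacetyl-CoA, had 2 detected members of 6 listed, neither called. Bdh1, the dehydrogenase that interconverts the ketone bodies, and Hadhb, the mitochondrial thiolase subunit, had CCH differences from control of 0.04 and 0.00 in hippocampus and of -0.35 and -0.38 in cortex (limma adjusted p = 0.35 and 0.53 in cortex).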
